A study of Homo sapiens with 6 samples.

Results

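The proteasome subunit genes are the protein-coding genes on chromosomes 1 to 22 of the RefSeq annotation of GRCh38 whose symbols run from PSMA to PSMG with a number, 47 of 19126 protein-coding genes there. PSMB8, PSMB9 and PSMB10, which encode the catalytic subunits of the immunoproteasome, were set against the other 44. Accessibility was measured by InTAC-seq, which applies ATAC-seq to cells that were fixed, stained and sorted: the transposase Tn5 inserts sequencing adapters where DNA is open. The cells were GM12878, a B lymphoblastoid line immortalised by Epstein-Barr virus. Of the 6 libraries, 2 came from fixed cells sorted for high staining of the histone mark H3K27ac, 2 from fixed cells sorted for low staining and 2 from live cells that were not sorted. Replicates held 50000 cells each. Those of the sorted groups were split after the sort, so the spread between them may be technical. Fixation, staining, sorting and crosslink reversal all differ between the sorted groups and the live control, and their parts cannot be told apart.

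The proteasome is the protease complex that degrades ubiquitin-tagged proteins in the cytosol and nucleus. Its barrel-shaped core is built from rings of alpha and beta subunits, and a regulatory particle of ATPases and other subunits recognises, unfolds and feeds in the substrate. In lymphocytes and in cells exposed to interferon, PSMB8, PSMB9 and PSMB10 take the places of the constitutive catalytic subunits PSMB5, PSMB6 and PSMB7, which changes the peptides made for MHC class I. Transcription of the standard subunits is known to be raised through antioxidant response elements by NFE2L1, and that of the immunoproteasome through interferon-stimulated elements by factors such as IRF1.

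Each library had 1 list of peak summits, which are single positions with a score. The lists held 25754 and 46708 summits in H3K27ac high, 41980 and 51944 in H3K27ac low and 70100 and 72476 in the live control. The shortest list, that of H3K27ac high replicate 1, had 24798 summits on chromosomes 1 to 22, and the 24798 best-scoring summits of every list were compared. A gene is called open when 1 of these lay within 1000 bp of either end of its record. Its rank is the place of its best such summit in the list, 1 being the best. A summit list cannot tell a site open in fewer cells from one less open in each cell. Among lineage markers, 3 of 8 B cell genes (MS4A1, CD79B and CD74) were open in all 6 libraries, and none of 5 myeloid genes was open in any library. CD3E and CD8A of the 5 T cell genes were open in all 6.

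The DNA just before the transcript starts is shown for the immunoproteasome genes, for the constitutive PSMB5, for PSMA6 and PSMG4, whose open start lay inside the gene record, and for PSMB11 and PSMA8, whose start held no summit. Each line gives the 250 bases before a RefSeq transcript start on GRCh38.p14, 5′ to 3′ on the strand of the gene, and capitals mark the 7 motifs searched.
PSMB8: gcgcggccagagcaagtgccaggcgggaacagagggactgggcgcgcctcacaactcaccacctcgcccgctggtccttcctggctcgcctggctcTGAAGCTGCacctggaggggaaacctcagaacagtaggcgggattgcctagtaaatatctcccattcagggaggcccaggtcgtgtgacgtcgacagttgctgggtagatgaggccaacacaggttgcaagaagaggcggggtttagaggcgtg
PSMB9: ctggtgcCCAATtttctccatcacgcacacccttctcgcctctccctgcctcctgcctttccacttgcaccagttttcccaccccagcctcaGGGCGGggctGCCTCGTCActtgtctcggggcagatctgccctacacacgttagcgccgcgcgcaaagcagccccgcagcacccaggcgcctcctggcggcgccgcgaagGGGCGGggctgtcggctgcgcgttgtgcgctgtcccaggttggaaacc
PSMB10: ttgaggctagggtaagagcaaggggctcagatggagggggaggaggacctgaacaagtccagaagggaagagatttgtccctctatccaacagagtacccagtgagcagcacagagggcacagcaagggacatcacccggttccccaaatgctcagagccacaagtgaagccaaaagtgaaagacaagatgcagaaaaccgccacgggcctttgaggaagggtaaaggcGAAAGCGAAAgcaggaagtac
PSMB5: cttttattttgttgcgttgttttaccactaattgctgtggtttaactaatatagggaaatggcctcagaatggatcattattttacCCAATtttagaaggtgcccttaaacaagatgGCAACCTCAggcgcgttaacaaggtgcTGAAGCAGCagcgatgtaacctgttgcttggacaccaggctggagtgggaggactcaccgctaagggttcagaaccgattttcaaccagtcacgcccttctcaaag
PSMA6: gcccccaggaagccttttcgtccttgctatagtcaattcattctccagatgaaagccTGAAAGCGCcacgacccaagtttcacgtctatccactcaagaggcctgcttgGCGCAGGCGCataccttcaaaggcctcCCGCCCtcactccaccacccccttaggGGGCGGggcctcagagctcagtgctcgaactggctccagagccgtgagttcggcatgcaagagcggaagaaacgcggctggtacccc
PSMG4: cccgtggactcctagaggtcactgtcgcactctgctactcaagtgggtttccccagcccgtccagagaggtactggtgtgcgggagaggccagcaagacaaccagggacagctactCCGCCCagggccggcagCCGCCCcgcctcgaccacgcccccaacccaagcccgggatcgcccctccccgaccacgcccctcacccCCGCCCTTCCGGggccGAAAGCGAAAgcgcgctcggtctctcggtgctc
PSMB11: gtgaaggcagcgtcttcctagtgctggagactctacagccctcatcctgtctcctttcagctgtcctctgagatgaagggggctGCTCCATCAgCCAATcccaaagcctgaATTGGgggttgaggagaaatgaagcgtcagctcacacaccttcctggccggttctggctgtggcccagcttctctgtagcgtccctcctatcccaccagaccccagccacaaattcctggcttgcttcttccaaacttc
PSMA8: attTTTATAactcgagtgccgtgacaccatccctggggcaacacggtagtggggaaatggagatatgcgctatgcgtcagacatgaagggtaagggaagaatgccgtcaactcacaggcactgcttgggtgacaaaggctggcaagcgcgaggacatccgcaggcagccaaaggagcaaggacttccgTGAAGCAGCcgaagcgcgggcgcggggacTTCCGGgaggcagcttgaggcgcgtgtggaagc
The windows lie at chr6:32844680-32844929 (minus strand), chr6:32853942-32854191 (plus), chr16:67936851-67937100 (minus), chr14:23035221-23035470 (minus), chr14:35292132-35292381 (plus), chr6:3258697-3258946 (plus), chr14:23041962-23042211 (plus) and chr18:26133619-26133868 (plus).

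The motifs were TGANNNNGC for the antioxidant response element core, GAAA, any 2 bases and GAAA for the interferon-stimulated element core, CCAAT for NF-Y, CCGGAA for ETS factors, GCGCA, any base and GCGC for NRF1, GGGCGG for SP factors and TATAAA for the TATA box, each searched on both strands. No base of the printed windows lay in more than 1 motif. RefSeq starts were at hand for 41 of the 47 genes, with 50 windows, and for 15101 of all genes on these chromosomes, with 21156 windows. The loose antioxidant core was in 29 of the 50 windows (58%), against 34.8% of all windows. The ETS motif was in 17 (34%), against 18.1% of all. The interferon-stimulated core was in 5 (10%), those of PSMB10, PSME2, PSMA4, PSMB4 and PSMG4, against 2.71% of all. For NF-Y the share was 36% against 32.4%, for SP 62% against 54%, for NRF1 10% against 6.59% and for the TATA box 10% against 9.03%. PSMB10 had its interferon-stimulated core at positions -21 to -12 before the start and no loose antioxidant core. PSMB8 (TGAAGCTGC) and PSMB9 (GCCTCGTCA, a match on the other strand) had a loose antioxidant core each and no interferon-stimulated core in these windows. Of the best PSMB9 summits, only that of live control replicate 1 lay inside its window. GC content over the 50 windows had a median of 61.6% (43.6% to 76.8%), against 62% over all windows. It was 67.2% before PSMB9, 61.6% before PSMB8, 53.6% before PSMB10 and 45.2% before PSMB5. The windows of PSMB11 and PSMA8 held 4 and 18 CpG dinucleotides, against a median of 18.5 over the 50. A match is a string of letters and not a shown binding site.

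Most proteasome genes were open in every library. The number open was 36 and 39 of 47 in H3K27ac high, 39 and 40 in H3K27ac low, and 39 and 38 in live cells. Over all protein-coding genes the open share was 45% and 48.1% in high, 50.2% in each low library, and 49.6% and 49.5% in live cells. The means were 37.5 ± 2.12 in high, 39.5 ± 0.71 in low and 38.5 ± 0.71 in the live control (SD, n = 2 each), and the high and low libraries touch at 39. In all 6 libraries 34 genes were open (72.3%, against 40.6% of all genes), and 7 were open in none (against 45% of all genes). With the full lists the number with a summit at an end was 36 and 40 in high, 40 in each low library, and 42 and 41 in live cells. The shares of all genes in those lists were 45% and 56.1% in high, 55.2% and 57.8% in low, and 61.7% and 62% in live cells. In the full lists 36 genes had one in all 6 libraries (44% of all genes) and 5 in none (35% of all genes). No proteasome gene was open in both high and neither low library (0.256% of all genes were) or in both low and neither high library (1.52% of all genes). The mean difference of high minus low was -2 genes, and it was -0.5 without H3K27ac high replicate 1 and -3.5 without high replicate 2.

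**Figure D1:**
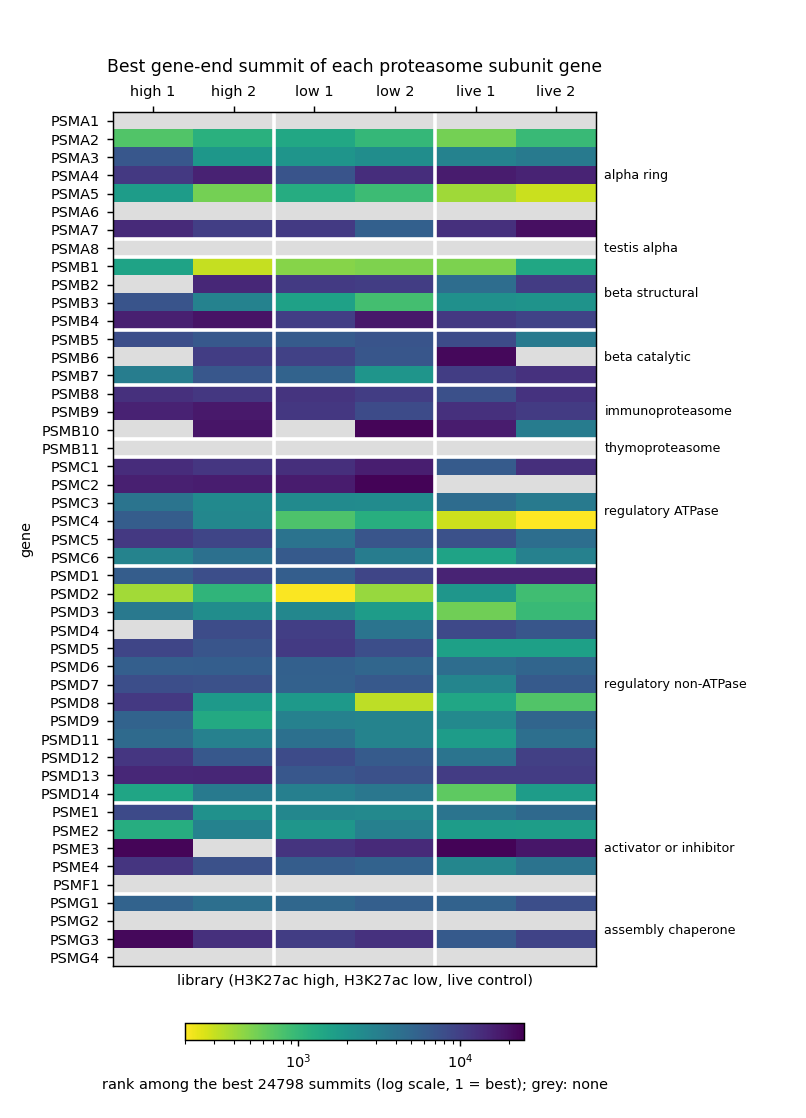
Rank of the best gene-end summit (colour, log scale, 1 = best) of each of the 47 proteasome subunit genes (rows, grouped by role) in each library (columns, H3K27ac high, H3K27ac low and live control). Grey means no gene-end summit among the best 24798, which holds in all 6 libraries for 7 genes.

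Of the 7 alpha ring genes, 5 were open in all 6 libraries. The alpha ring forms the gate of the core. PSMA5 ranked 1714 and 543 in high, 1248 and 908 in low, and 398 and 294 in live cells. PSMA2 ranked 734 and 1170 in high, 1380 and 999 in low, and 543 and 938 in live cells. Both were among the 4 best-placed genes of the family by mean rank. PSMA3 ranked 1935 to 6720 over the libraries, PSMA4 7026 to 17141 and PSMA7 5639 to 20276.

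All 4 structural beta genes were open in at least 5 libraries. PSMB1, with ranks of 1513 and 307 in high, 477 and 509 in low, and 519 and 1403 in live cells, had the best mean rank of the family (788). These summits lay 957 to 985 bp outside the PSMB1 record, at the edge of the window and next to the recorded start coordinate of TBP. The summit 1 to 98 bp from the end of PSMB1 ranked 19072 and 15715 in high, 14849 and 17219 in low, and 21207 and 12643 in live cells. PSMB3 ranked 7100 and 2926 in high, 1569 and 846 in low, and 2200 and 2074 in live cells. PSMB2 had no gene-end summit in H3K27ac high replicate 1 and ranked 14428 in high replicate 2, 10966 and 10295 in low, and 4466 and 10453 in live cells. PSMB4 was open throughout at 9375 to 19271.

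Nearly all genes of the regulatory particle were open. Of the 6 ATPase genes, whose products unfold the substrate, 5 were open in all 6 libraries, and of the 13 non-ATPase genes 12 were. PSMD2, the gene of a scaffold subunit of the base that binds ubiquitin receptors, ranked 389 and 1050 in high, 207 and 418 in low, and 1980 and 874 in live cells. PSMD14, which encodes the deubiquitinase of the lid, ranked 1446 and 3417 in high, 3098 and 3690 in low, and 658 and 1724 in live cells. PSMD4, the gene of a ubiquitin receptor, had no gene-end summit in H3K27ac high replicate 1. Its ranks in the other libraries were 8043 in high replicate 2, 10110 and 3899 in low, and 8491 and 6772 in live cells. PSMC2 was open in the 4 sorted libraries alone, at 16096 and 16824 in high and 17290 and 23716 in low, and its live summits stood just past the 24798 best, at 27795 and 25328. The best PSMC2 summits lay within 62 bp of its listed start, and the record of PMPCB, on the same strand, ends 18 bp inside that of PSMC2.

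The genes of activators and chaperones were more mixed. PSME2, for a subunit of the interferon-inducible activator PA28, ranked 1229 and 2938 in high, 1966 and 3054 in low, and 1723 and 1699 in live cells. In 4 of the 6 libraries this summit lay 715 to 763 bp before the PSME2 start, inside the record of RNF31. PSME1, for its partner subunit, ranked 8371 and 2150 in high, 2668 and 2547 in low, and 3905 and 4754 in live cells. PSME3, for a nuclear activator, ranked 23074 in H3K27ac high replicate 1 and 28566, outside the best 24798, in high replicate 2. It ranked 12079 and 14073 in low, and 23758 and 18685 in live cells. Of the 4 assembly chaperones PSMG1 and PSMG3 were open in all 6 libraries.

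Of the 7 genes open in no library by their annotated ends, 5 had a summit among the best 24798 of every library at a RefSeq transcript start inside the record. These were PSMA1, PSMA6, PSMG2, PSMG4 and PSMF1, the last for an inhibitor of the core. Their records extend upstream of these starts. PSMA6 had a summit within 1000 bp of its inner start at ranks of 2956 and 1898 in high, 2390 and 1376 in low, and 2229 and 1405 in live cells. PSMA1 had one at 465 and 1386 in high, 3904 and 2564 in low, and 1219 and 1180 in live cells. PSMF1 followed with 11553 and 5080 in high, 4756 and 3249 in low, and 3773 and 1971 in live cells. PSMA1 thus ranked no later than 3904 and PSMA6 no later than 2956 in any library at the inner start, and PSMF1 was latest in H3K27ac high replicate 1. For PSMG4 the ranks were 23758 and 5941 in high, 4401 and 8614 in low, and 7049 and 9201 in live cells. For PSMG2 they were 16367 and 16835 in high, 9377 and 12481 in low, and 15890 and 12065 in live cells. The low libraries placed PSMG2 before the high ones, and the live controls overlapped the low ones. The recorded end of CEP76 lies near the inner start of PSMG2, so this summit may belong to either.

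**Figure D2:**
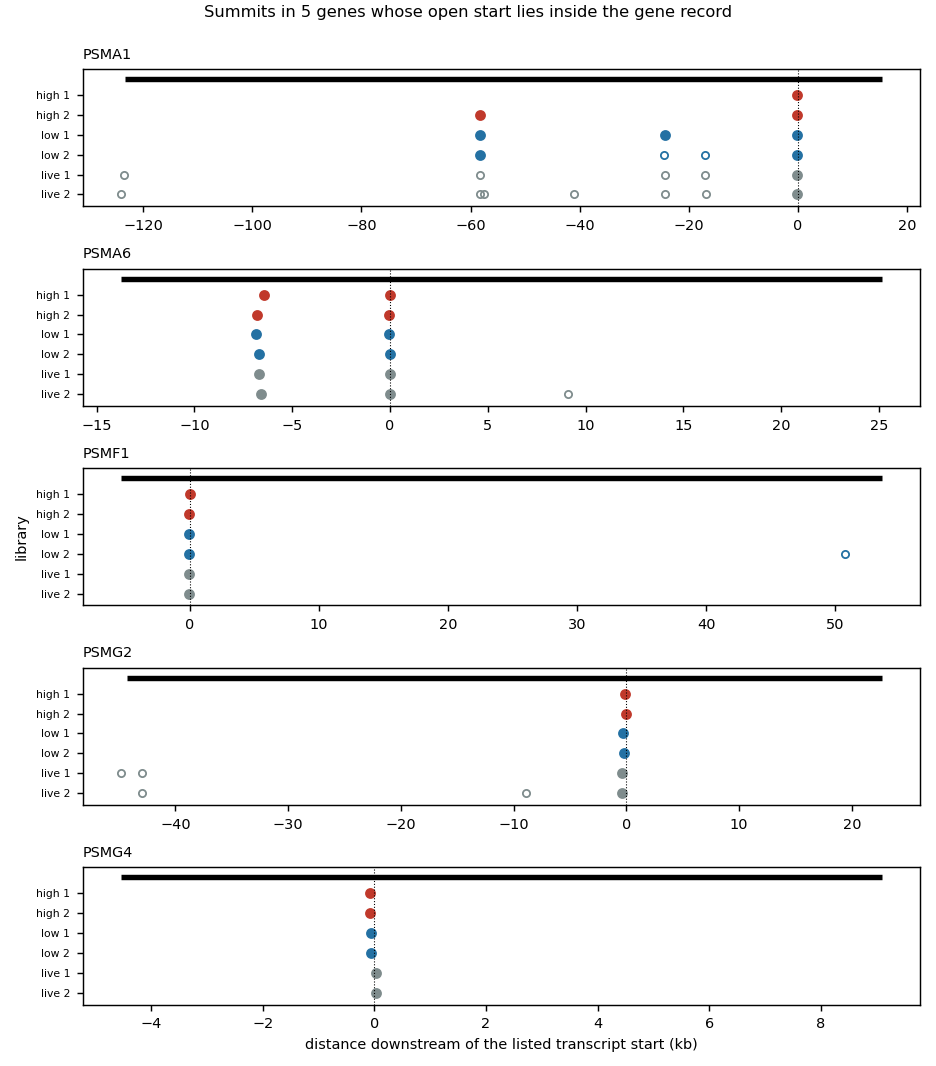
Summits along PSMA1, PSMA6, PSMF1, PSMG2 and PSMG4 in each library (rows), as distance in kb downstream of the open transcript start (dotted line). Filled points are among the best 24798 summits of the library, open points are not, the black bar is the gene record, and all 6 libraries have a filled point at the dotted line in each gene.

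With starts and ends counted together, 39 genes were open in all 6 libraries (43.5% of all genes were) and 2 in none (41.8% of all genes). Those 2 were the tissue-specific forms PSMB11, a catalytic subunit of the thymus, and PSMA8, an alpha subunit of the testis. PSMB11 had no summit within its record or 1000 bp of it in any full list. PSMA8 had none at its start and 2 to 4 summits inside its record per library. One of these, at chromosome 18, 26167719 to 26167763, was in all 6 lists, at ranks of 11006 and 11568 in high, 22236 and 13712 in low, and 24186 and 23991 in live cells. The pseudogene DHFRP1 is recorded inside PSMA8 next to that summit. Another, at 26190649 to 26190735, was in all 6 lists at ranks of 16721 and 8721 in high, 16517 and 20903 in low, and 15093 and 12381 in live cells.

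Where a start was listed, the best summit of the family mostly lay just before it. Its median position relative to the start was -82 to -69.5 bp, depending on the library, over 37 to 39 genes, negative values being upstream. For all genes with such a summit it was -81 to -71 bp. The summit was within 150 bp of the start for 81.6% to 92.1% of these genes, against 69.7% to 75.8% of all such genes. For the 34 genes open in all 6 libraries, the best summits of the 6 libraries spanned a median of 85.5 bp. PSMA3 had the tightest span, 4 bp, and PSME2 the widest, 592 bp. High and low summit positions were at least 100 bp apart without overlap for none of 35 genes (1.81% of all genes). The same gap between sorted and live libraries was found for 1 of 34, against 1.96% of all genes. That gene was PSMD13, for a lid subunit. Its summits lay at chromosome 11, 236563 and 236534 in high, 236526 and 236437 in low, and 236891 and 236867 in live cells. The end of SIRT3 lies 45 bp from that of PSMD13, and all 6 positions lie inside the SIRT3 record.

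Inside the gene bodies, over 1000 bp from both ends, 8 proteasome genes had a summit in all 6 full lists (17%, against 22.2% of all genes and 23.7% of those over 2000 bp long). They were PSMA1, PSMA6, PSMF1, PSMG2 and PSMG4 with their inner starts, and PSMA8, PSMD14 and PSME4. PSMA6 had a second inner summit about 35285481 to 35285871 on chromosome 14, at ranks of 12828 and 11959 in high, 10652 and 8482 in low, and 8146 and 11760 in live cells. PSMD14 had 4 and 3 body summits in high, 3 and 2 in low, and 3 in each live control. Its best one lay at chromosome 2, 161385045 to 161385072, and ranked 4033 and 8851 in high, 10840 and 8932 in low, and 7549 and 7243 in live cells. PSME4, for the nuclear activator PA200, had 1 body summit in each library except live control replicate 2, which had 2.

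By median gene-end rank, the immunoproteasome genes were placed worse than the rest of the family in every library, although PSMB10 ranked 3290 in live control replicate 2. Their median rank was 15720 and 17968 in high, 11967 and 10311 in low, and 12692 and 10666 in live cells. The other 44 genes had medians of 10117 and 7222 in high, 6055.5 and 5946.5 in low, and 4982 and 6554.5 in live cells, a gene with no open end counting as worse than any rank. The mean difference over the libraries was 6408 ranks. It was 3516 with a window of 2500 bp, which takes in a high-ranking summit inside PSMB10. With any summit in the gene or its 1000 bp flanks, the immunoproteasome medians were 12731 and 11386 in high, 11322 and 8228 in low, and 7642 and 10666 in live cells. The other genes then had medians of 8083.5 and 6252.5 in high, 5483 and 5268.5 in low, and 4150 and 4934.5 in live cells. With 3 genes in the smaller set these are descriptions.

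PSMB8 did not separate the groups. It ranked 12731 and 11386 in high, 11967 and 10311 in low, and 7642 and 12202 in live cells. The mean rank was 12059 ± 951 in high and 11139 ± 1171 in low (SD, n = 2 each), a difference of 919.5 (exact permutation test, two-sided, p = 0.667). Its constitutive counterpart PSMB5, the chymotrypsin-like subunit, ranked 7796 and 6564 in high, 6175 and 7033 in low, and 8302 and 3372 in live cells. PSMB5 thus ranked before PSMB8 in 5 of the 6 libraries, live control replicate 1 being the exception. The PSMB8 summits lay at chromosome 6, 32844776 and 32844735 in high, 32844666 and 32844665 in low, and 32844769 and 32844773 in live cells, around the start at 32844679. Every low position was thus on the downstream side of that start, and every high and live position upstream of it in the printed window.

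PSMB9 showed the second largest separation of high and low in the family. It ranked 15720 and 17968 in high, 11322 and 8228 in low, and 12692 and 10666 in live cells. The low libraries placed it before both high ones, and the live controls lay between high replicate 1 and low replicate 2. The mean rank was 16844 ± 1590 in high and 9775 ± 2188 in low (SD, n = 2 each), a difference of 7069 (exact permutation test, two-sided, p = 0.333, the smallest that 2 libraries against 2 allow). Leaving out 1 sorted library gave 5522 to 8616. PSMB6, its caspase-like counterpart, had no gene-end summit in H3K27ac high replicate 1 and ranked 10413 in high replicate 2. In the low libraries it ranked 9831 and 6815, and in the live controls 22241 and 28277, the last outside the best 24798. PSMB9 and TAP1, a peptide transporter gene, are read in opposite directions from starts 488 bp apart. The PSMB9 summits, at chromosome 6, 32853723 and 32853787 in high, 32853765 and 32853872 in low, and 32854055 and 32853729 in live cells, all lay between them. They were 469 and 405 bp before the PSMB9 start in high, 427 and 320 bp in low, and 137 and 463 bp in live cells. All but that of live control replicate 1 were thus nearer to the TAP1 start, so the high and low ranks may be those of TAP1.

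PSMB10 had its best summit inside the gene and not at an end. The record, chromosome 16 from 67934506 to 67936850, is 2345 bp long. In every library the best summit lay 998 to 1079 bp downstream of the start, at ranks of 2207 and 2966 in high, 2225 and 1588 in low, and 565 and 3290 in live cells. These are better places than any that PSMB8 or PSMB9 held. The 1000 bp limit took in the summit of live control replicate 2, at 998 bp, and left out the other 5. A second, weaker summit stood next to the start. It was absent from the list of H3K27ac high replicate 1, and ranked 19050 in high replicate 2, 31272 and 23276 in low, and 17281 and 12721 in live cells. The constitutive counterpart PSMB7, the trypsin-like subunit, ranked 3205 and 6718 in high, 5374 and 1991 in low, and 10426 and 12467 in live cells, so the 4 sorted libraries all placed it before the live controls.

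**Figure D3:**
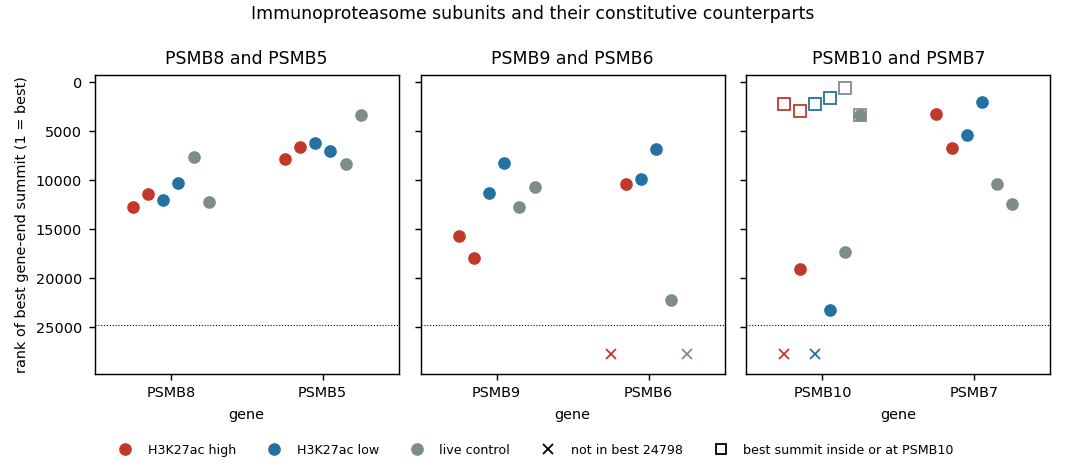
Rank of the best gene-end summit (vertical axis, 1 = best at the top) in each library for the immunoproteasome genes PSMB8, PSMB9 and PSMB10 (left in each panel) and their constitutive counterparts PSMB5, PSMB6 and PSMB7. Crosses mark libraries with none among the best 24798 (dotted line), and open squares give the best summit in or at PSMB10, which ranked 565 to 3290.

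The first comparison asked how high and low H3K27ac cells differ. Of 35 proteasome genes ranked in all 4 sorted libraries, 11 were placed better in both low than in both high libraries (31.4%, against 38.6% of 8004 genes) and 1 better in both high (2.86%, against 13% of all genes). The median difference in mean rank, high minus low, was 731 for the family and 1003 for all genes, a positive value being a worse place in high. It was above 0 for 26 of the 35 genes and for 5421 of 8004. The 11 genes were PSMB9, PSMB3, PSMC3, PSMC4, PSMC5, PSMD6, PSMD7, PSMD8, PSMD13, PSME4 and PSMG3, of which PSMB9, PSMC5, PSMD13 and PSME4 have a neighbouring gene at the end that held the summit. For each of them and for PSMC2 the exact permutation test, two-sided, gave p = 0.333, the smallest it can give. Omitting 1 library eases the rule, and the 2 counts became 17 and 9 without H3K27ac high replicate 1, 23 and 5 without high replicate 2, 17 and 6 without low replicate 1 and 16 and 4 without low replicate 2. The median difference became 362.5 without high replicate 1 and 1363 without high replicate 2.

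Among the 11, the lid gene PSMD13 differed most. It ranked 14455 and 14652 in high, 6760 and 7518 in low, and 10465 and 10510 in live cells, so that the live controls lay between the sorted groups. The live summits were at least 304 bp from the sorted ones, so the live ranks were read at other positions. The mean was 14554 ± 139 in high and 7139 ± 536 in low (SD, n = 2 each), a difference of 7415 ranks. The spread within either group may be technical, so it cannot show how far separate sorts would differ. PSMG3, for an assembly chaperone of the alpha ring, ranked 22322 and 12627 in high, 10254 and 12441 in low, and 6354 and 9320 in live cells. Its high libraries were far apart, with a mean of 17475 ± 6855 against 11348 ± 1546 in low (SD, n = 2 each). PSMD8, for another lid subunit, ranked 11243 and 1878 in high, 1849 and 321 in low, and 1418 and 735 in live cells, and high replicate 2 stood next to low replicate 1.

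The ATPase genes PSMC4 and PSMC5 had later places in the high than in the low lists. PSMC4 ranked 5964 and 2656 in high, 775 and 1199 in low, and 289 and 198 in live cells. PSMC5 ranked 11111 and 9005 in high, 3991 and 6896 in low, and 7432 and 4357 in live cells. For PSMC4 the 3 groups followed each other without overlap, and for PSMC5 low and live cells overlapped. PSMC5 has ends of FTSJ3 and SMARCD2 within 1000 bp. PSMC3 had ranks of 3886 and 2498 in high, 2485 and 2437 in low, and 4516 and 3495 in live cells, with high replicate 2 again next to low replicate 1.

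Smaller separations were found for PSMD6 and PSMD7, both for lid subunits. PSMD7 ranked 7736 and 7477 in high, 5592 and 6473 in low, and 2751 and 6337 in live cells. PSMD6 ranked 5812 and 5870 in high, 5706 and 5092 in low, and 4395 and 5115 in live cells, a narrow range over all 6 libraries. PSME4 ranked 11827 and 7461 in high, 5936 and 5445 in low, and 2727 and 3986 in live cells, again with no overlap between the 3 groups. The 1 gene with the opposite order was PSMC2, given above.

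**Figure D4:**
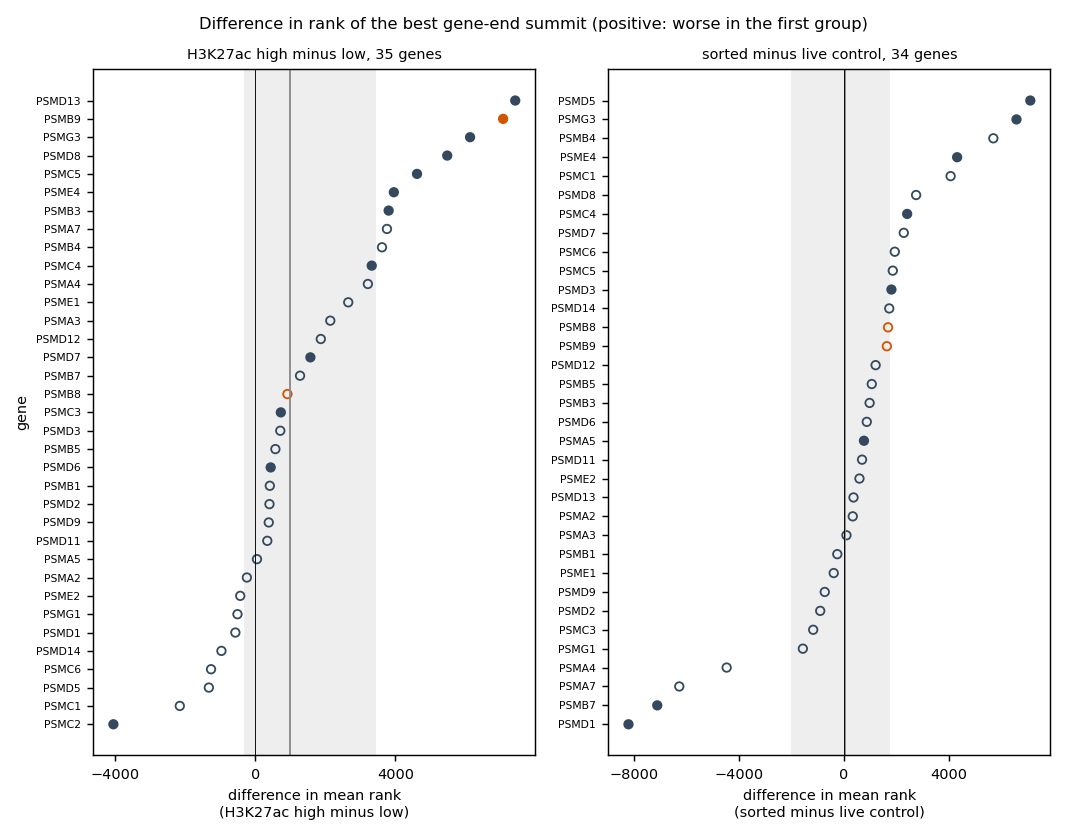
Difference in mean rank of the best gene-end summit for each proteasome gene (positive means a worse place in the first-named group), H3K27ac high minus low (left, 35 genes) and sorted minus live control (right, 34 genes). Filled points have no overlap between the groups, orange points are PSMB8 and PSMB9, the grey band spans the middle quartiles of all genes and the grey line their median, 1003 on the left and 16.3 on the right.

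The second comparison set the 4 sorted libraries against the live controls. Of 34 proteasome genes ranked in all 6 libraries, 6 were placed better in both live controls than in all sorted libraries (17.6%, against 15.4% of 7763 genes) and 2 better in all sorted libraries (5.88%, against 20% of all genes). The median difference in mean rank, sorted minus live, was 919 for the family, with 24 of 34 above 0, and 16.3 for all genes. It was 498 without H3K27ac high replicate 1 and 494 without live control replicate 1. The 6 genes were PSMA5, PSMC4, PSMD3, PSMD5, PSME4 and PSMG3. The other 2 were PSMB7 and PSMD1, the gene of the largest subunit of the base. With 4 libraries against 2 the exact permutation test, two-sided by doubling the smaller tail, cannot go below p = 0.133, the value for each of these 8 genes. Both this test and an SD over n = 4 count the sorted libraries as separate, although each sorted group was split after its sort.

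PSMD1 differed most. It ranked 5996 and 7720 in high, 5823 and 9023 in low, and 15348 and 15376 in live cells, a mean of 7141 ± 1519 in the sorted libraries (SD, n = 4) and 15362 ± 19.8 in live cells (SD, n = 2). PSMD5, for a chaperone of base assembly, had the opposite order. Its ranks were 9125 and 6983 in high, 11017 and 7734 in low, and 1616 and 1612 in live cells. PSMD3, for a lid subunit, ranked 3504 and 2334 in high, 2675 and 1732 in low, and 568 and 945 in live cells. PSMB7 averaged 4322 ± 2124 in the sorted libraries (SD, n = 4) and 11447 ± 1443 in live cells (SD, n = 2). The 6 genes placed better in live cells came from the alpha ring, the ATPases, the other regulatory subunits, the activators and the chaperones.

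Genes that work with the proteasome were mostly open too. Of 24 partner genes, 19 were open in all 6 libraries, against 40.6% of all genes. UCHL5, for a deubiquitinase of the regulatory particle, ranked 355 and 305 in high, 161 and 494 in low, and 418 and 483 in live cells. The gene of the transcription factor NFE2L1 ranked 2813 and 1844 in high, 1190 and 1421 in low, and 1378 and 1111 in live cells. ADRM1, for a ubiquitin receptor, ranked 15042 in H3K27ac high replicate 1, 2977 in high replicate 2, 2255 and 1839 in low, and 2706 and 1890 in live cells. Of the 20 partners ranked in all sorted libraries, 7 were placed better in both low and 3 better in both high libraries (38.6% and 13% of all genes were). Of the 7 antigen processing and interferon genes, 6 were open in all 6 libraries, against the same share of all genes, and of those 6 genes 2 were placed better in both low and 2 in both high libraries. One of those better in low was TAP1, which has PSMB8 and PSMB9 at its ends. Its high ranks, 12731 and 11386, were those of the PSMB8 summits. Its low ranks, 11322 and 8228, were those of the PSMB9 summits, so its call compared different sites. The gene of the interferon-induced factor IRF1 ranked 2950 and 3367 in high, 3042 and 3639 in low, and 7071 and 7160 in live cells. All 4 sorted libraries thus placed IRF1 before the live controls.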

How the data were processed

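InTAC-seq libraries of GM12878 cells, 6 in all, formed 3 groups of 2 by their titles, which also number the replicates. Per the labels' protocols, 50000 cells per replicate were transposed for 30 min at 37 °C, and crosslinks were reversed except in the live control. The staining protocol names the antibody target H3K37ac, read here as H3K27ac. Per the submitters' processing notes, bcl2fastq, FastQC, Bowtie2, Picard and MACS2 were used, with the builds hg38 and hg19. The sources used here do not give settings, versions, the Tn5 shift or how duplicates were treated. The score deposited by the authors for each summit is read as the −log10 of a p-value or q-value, the lowest in any list being 2.02. It grows with depth, so it was used only to rank summits within a list. Peaks were listed per library. The coordinates were read on hg38 (GRCh38), 1-based. The lists give no read counts, so depth and the precision it gives are unknown.

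Summits on chromosomes 1 to 22 were ranked by score, ties by a seeded draw, and each list was cut to 24798 summits. At the best summits of proteasome genes a score was tied among a median of 1 to 6.5 summits per library, with up to 442 in H3K27ac high replicate 1. No call of separate groups depended on how ties fell. Gene ends came from the RefSeq gene table and transcript starts and strand from the RefSeq promoter table. PSMA7, PSMB1, PSMB6, PSMB7, PSMD4 and PSMG3 had no entry there. Motifs were searched in the 250 bases before each start. Groups were compared by counts, medians and exact permutation tests over libraries (SciPy 1.17.1). Placement and calls were tried on simulated lists. How often a call arose there without a planted shift is not given here. The members, gene lists and tests were chosen with earlier results of these data known. Named genes were the catalytic pairs, PSMB11, PSMA8, genes with separate groups (up to 12 for high and low, up to 6 for sorted and live), the 4 best placed, up to 6 with body summits in all lists, and those open in some libraries or in none. PSMA3, PSMA4, PSMA7, PSMB4, PSMD3, PSME1, PSME2 and PSMG1 were added to round out the roles, after their values were seen.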

Additional observations from a re-analysis of the deposited data

Results flagged for a closer look

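PSMD10, a proteasome subunit gene on chromosome X for a chaperone of base assembly, lies outside the chromosomes compared, and its summits were used in no comparison. A summit lay within 1000 bp of its end in all 6 libraries. Its place in the whole list was 2770 and 1459 in H3K27ac high, 2533 and 3036 in H3K27ac low, and 1724 and 776 in the live controls. The positions ran from 108091644 to 108091677, outside the gene record, which ends at 108091542.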

How the results depend on the processing

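Limits lie in the lists: 2 libraries per group, no depth, a shortest list that sets the common length, and gene ends shared with another protein-coding gene for 19 of the 47 genes. The mean difference in open genes between high and low (-2) became -6 with the best 12399 summits. That between sorted and live (0) became -2.5 with full lists. Without genes that share an end, which leaves 28, 20 genes were open in all libraries, against 34, and 6 were placed better in low and 0 in high, against 11 and 1. PSMB1 stayed among these 28, although its best summits lay next to the recorded start coordinate of TBP. The count placed better in high was 0 with the best 12399 summits, 2 with a window of 2500 bp, with listed transcript starts alone and with starts and ends together, and 3 with whole genes. The last 3 settings, ties at their mean rank and the lengthened lists below were chosen after seeing the data. The immunoproteasome difference (6408) was 3516 with 2500 bp. It gave no value with the best 12399 summits, where PSMB10 and another immunoproteasome gene were absent in some library. It gave none without shared ends either, where PSMB8 and PSMB9 were left out and PSMB10 was absent in some library. PSMB10 had no difference of high and low to vary. H3K27ac high replicate 1 lacked a gene-end summit, and that of low replicate 1, at 31272, lay outside the best 24798. With 2500 bp PSMB10 had 680 ranks, from the summit inside the gene. With lists of 40489 and without high replicate 1 it had -8224 ranks, from the summit next to the start.

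Leaving out 1 library gave -3.5 to -0.5 genes for high minus low and -0.5 to 0.833 for sorted minus live. It gave 34 to 36 genes open in all, median rank differences of 362.5 to 1363 and of 494 to 1252, counts of 11 to 23 and 1 to 9, an immunoproteasome difference of 5540 to 6867, and 8 to 9 genes with body summits. PSMB8 differed by 91.5 to 1748 ranks and PSMB9 by 5522 to 8616. Without H3K27ac high replicate 1 and with lists of 40489, the difference in open genes was 0, the counts 18 and 10, and the median sorted minus live 393. The replicate numbers are not said to mark a shared batch, and over 8004 genes the deviations of equal numbers correlated at r = 0.0852. With the replicate block the differences were -2 and 0 genes, 731 and 919 ranks, 919.5 for PSMB8 and 7069 for PSMB9, as without it. Each replicate number occurs once in each group, so both ways of averaging must give the same values. The block therefore could not show whether a shared batch matters.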
